A study of Sus scrofa with 6 samples.

Results

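CD8 T cells were selected from 6 single-cell RNA sequencing libraries by the RNA molecules, counted as unique molecular identifiers (UMIs), that each cell held. A member had at least 2 UMIs of Cd3d, Cd3e and Cd3g together, at least 1 UMI of Cd8a and Cd8b1 together, and none of Trdc, Cd4, Foxp3, Csf1r or Csf3r. The rule was applied to 83559 cells that held 500 gene UMIs or more from 300 genes or more, with no more than 20% of UMIs mitochondrial. The members, chosen by these UMI counts, were 353 of them (0.422%, exact 95% binomial interval 0.380 to 0.469). They made up 6.41% (5.78 to 7.09) of the 5504 cells with at least 2 CD3 UMIs. Intervals of shares and of ratios cover counting error only.

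CD8 T cells are the cytotoxic arm of the αβ T cells. Their receptor reads peptides held by MHC class I, with the CD8 chains encoded by Cd8a and Cd8b1 as co-receptor. On recognition they release perforin, which opens membranes, and granzymes, proteases that start cell death in the target, and they secrete interferon-γ and chemokines such as Ccl5. In skin, some persist as resident memory cells that hold CD103 (Itgae), an integrin that binds E-cadherin on keratinocytes, while cells that recirculate carry Ccr7, a chemokine receptor for entry into lymph nodes.

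Per the labels, the cells were unsorted and came from skin of red duroc pigs that was digested with collagenase. There was 1 library each of normal skin and of irradiated skin, and 4 of skin treated with a 1 mg deferoxamine patch. The patch was given as pretreatment 2 weeks ahead of radiotherapy or as continuous treatment over 18 weeks, the entire span of the experiment. The chronic label reads 4 weeks after recovery of radiation, and the acute label 12 weeks of recovery after radiation. Deferoxamine is an iron chelator. The labels gave no age, no sex and no number of animals, and did not name irradiation for each patch library beyond these schedules. Against the labels, all 32285 gene features were mouse Ensembl identifiers, and 4 hashtag antibodies against mouse antigens were counted in every library except pretreatment and continuous. The libraries are therefore called by their labels, and no difference below is attributed to radiotherapy or the patch.

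The libraries held 18611144 to 54966435 gene UMIs. The median kept cell held 1441, 1640, 9651, 3267, 1385 and 2762 UMIs in normal, irradiated, pretreatment, continuous, acute and chronic, so a single CD8 UMI was easier to find in some libraries than in others. Pairs of libraries shared between 3 and 153 cell barcodes, and no member's barcode was among them. Scrublet marked as doublets 9 of the 97 members of normal, 11 of the 43 of irradiated, 0 of the 2 of pretreatment, 2 of the 74 of continuous, 3 of the 28 of acute and 5 of the 109 of chronic. Of all kept cells, 10.0%, 22.0%, 1.47%, 2.05%, 10.0% and 7.78% were marked in the same order. Irradiated and continuous used Scrublet's own threshold and the other libraries a set share of the highest scores, so the counts are not comparable between libraries. The marked members were kept, and results without them are given where they change.

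The defining markers were checked per library as UMIs per 1000000 UMIs of the members (CPM). Cd8a stood at 401, 431, 152, 365, 344 and 381 in normal, irradiated, pretreatment, continuous, acute and chronic. Cd8b1 stood at 513, 455, 75.9, 509, 291 and 603 in the same order, and Cd3e at 397, 376, 152, 441, 410 and 538. These genes chose the cells, so the levels only describe them. Trac, the constant chain of the αβ receptor and not used by the rule, was at 235 to 379 CPM in the 5 larger sets. Over all members, 159 cells held UMIs of both CD8 genes, 83 of Cd8a alone and 111 of Cd8b1 alone. The median member held 2 CD8 UMIs and 4 CD3 UMIs. On the rule's boundary, 129 members had a single CD8 UMI, 91 had exactly 2 CD3 UMIs and 51 had both. Just outside it, 127 cells had 1 CD3 UMI, 176 had none and 1712 had no CD8 UMI, while meeting the other conditions. Of 518 cells with enough CD3 and CD8 UMIs, 127 held a Csf1r or Csf3r UMI, 25 a Trdc UMI, 24 a Cd4 UMI and 16 a Foxp3 UMI, and a cell can be counted under several.

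Marker genes of other cells were summed over the members of each library. Of 10 γδ T cell markers, Trdv4, Tcrg-V6 and Sox13 were at 0 in every library, and the sum ranged from 20.0 to 113 CPM against 2222 to 4575 CPM in γδ T cells. Of 9 natural killer (NK) cell markers, Ncr1, Klra4 and Khdc1a were at 0 in every library, and the sum ranged from 0 to 204 CPM against 2037 to 3226 CPM in NK cells. These sums include genes of the gates, 1 of the γδ markers and 4 of the NK markers. Part of each gap was therefore fixed by the choice of cells. The 5 markers of invariant T cells summed to 0 to 32.1 CPM, with their receptor genes Trav11 and Trav1 at 0. Transcripts of abundant skin leukocytes were present. The 9 neutrophil markers summed to 9247, 9715, 0, 4974, 8324 and 3333 CPM in normal, irradiated, pretreatment, continuous, acute and chronic. The 12 macrophage markers summed to 2526, 2658, 75.9, 1003, 4677 and 1448 CPM, the 7 fibroblast markers to 2855, 721, 380, 5395, 9103 and 265 CPM, and the 5 erythroid markers to 1552, 2807, 0, 9775, 52.8 and 36.1 CPM in that order. Their part in the results below was not tested.

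The share of CD8 T cells differed between libraries by more than counting error. Members made up 0.548% (0.444 to 0.668) of kept cells in normal (97 cells) and 0.194% (0.141 to 0.262) in irradiated (43 cells). They made up 0.133% (0.0162 to 0.481) in pretreatment (2 cells), 0.830% (0.652 to 1.04) in continuous (74 cells), 0.116% (0.0771 to 0.168) in acute (28 cells) and 1.19% (0.976 to 1.43) in chronic (109 cells). Irradiated lay 0.353 percentage points below normal (interval of the difference −0.485 to −0.230). Continuous lay 0.636 points above irradiated (0.446 to 0.853) and chronic 0.993 points above it (0.771 to 1.24). Pretreatment minus irradiated was −0.0609 points, with an interval of −0.196 to 0.291. Acute minus irradiated was −0.0783 points (−0.156 to −0.00387). It turned to 0.0143 (−0.0499 to 0.0802) after thinning to 1000 UMIs per cell, which left out cells with fewer. Left out were 5330, 5460, 103, 509, 7954 and 729 kept cells in normal, irradiated, pretreatment, continuous, acute and chronic. Thinned shares thus differ in the cells counted as well as in depth. With 1 library per label, none of these differences has a replicate check.

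Counted among cells with at least 2 CD3 UMIs, the order of the libraries changed. Normal had the highest share with 11.1% (9.08 to 13.4), followed by continuous with 8.17% (6.47 to 10.1), chronic with 6.40% (5.28 to 7.67), irradiated with 4.37% (3.18 to 5.84), acute with 2.96% (1.97 to 4.25) and pretreatment with 2.25% (0.273 to 7.88). Neighbours in that order had intervals that overlapped. On this base irradiated minus normal was −6.72 points (−9.28 to −4.23). After thinning, the shares were 13.1%, 3.65%, 0%, 6.17%, 4.66% and 5.95% in normal, irradiated, pretreatment, continuous, acute and chronic. The excess over irradiated was then 2.52 points (−0.917 to 5.66) in continuous and 2.30 points (−0.871 to 4.87) in chronic, both no longer beyond counting error. For every 100 CD4 T cells without Foxp3 there were 159, 55.1, 35.6, 33.7 and 46.8 CD8 T cells in normal, irradiated, continuous, acute and chronic. In these unsorted digests a larger share of CD8 T cells and a smaller number of other cells cannot be told apart.

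**Figure D1:**
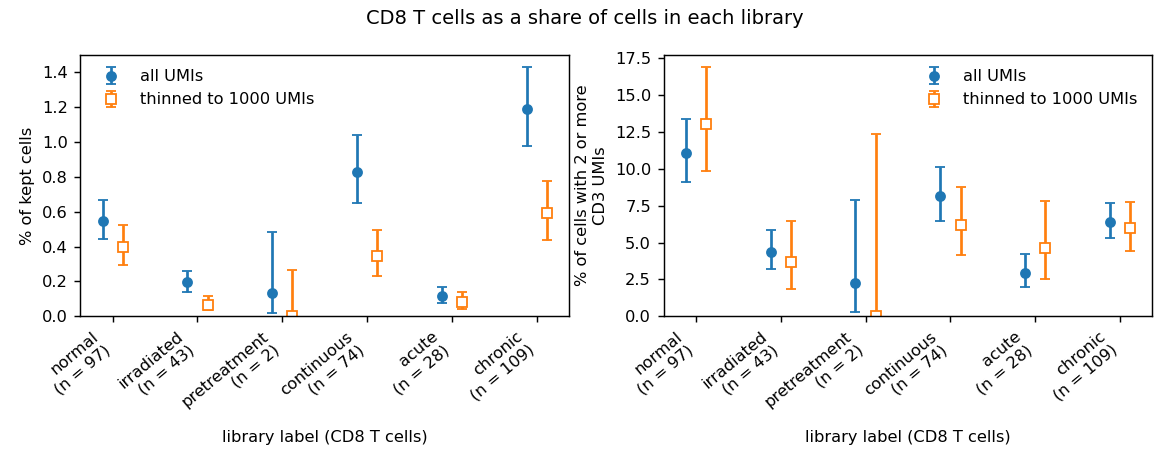
CD8 T cells as a percent of kept cells (left) and of cells with at least 2 CD3 UMIs (right) in each library, with exact 95% binomial intervals. Filled circles use all UMIs and open squares cells thinned to 1000 UMIs, and n is the number of members. Chronic is highest on the left with 1.19%, and normal is highest on the right with 11.1%.

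To ask which genes mark these cells beyond the rule, the members' UMIs were summed per library and compared with those of 3 neighbouring lymphocyte classes gated in the same way. These were 673 CD4 T cells without Foxp3, 1062 γδ T cells (Trdc at 1 UMI or more) and 215 NK cells (no CD3 UMI and at least 2 UMIs of Ncr1, Klrb1c, Klre1 and Klra8). The test was edgeR's quasi-likelihood test with the library as a block over 5 libraries, leaving out pretreatment with its 2 members, and a call needed an adjusted p under 0.05. Genes of the gates were kept out of the tests. The 5 libraries carry different labels and nothing says they came from separate animals, so a p-value measures the spread between these libraries only.

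Against CD4 T cells, the CD8 T cells held more of the cytotoxic transcripts and less of the type 17 transcripts and of several costimulatory receptors and ligands. Of 3584 genes tested, 78 (2.18%) were higher and 115 (3.21%) lower in CD8 T cells, 5.39% in all. Leaving out chronic gave 38 higher and 63 lower, and leaving out irradiated gave 46 higher and 75 lower. In the list of cytotoxic granule genes and death ligands, 9 of 11 tested members (of 20 listed) were higher and 0 lower, with a median log2 fold of 2.53 against 0.02 over all genes.

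Gzma, the most abundant tryptase-like granzyme of killer cells, was at 1139, 792, 947, 898 and 1267 CPM in normal, irradiated, continuous, acute and chronic. In CD4 T cells of the same libraries it was at 58.7, 0, 7.33, 0 and 13.1 CPM, far below in every library. The log2 fold was 6.46 (SE 0.47, edgeR adjusted p = 8.5e-05). Gzmk, a granzyme of memory cells, was at 80.2, 54.9, 64.2, 66.1 and 92.7 CPM in CD8 T cells, and at 0 in CD4 T cells of 4 libraries and 1.31 CPM in chronic (6.58, SE 0.55, adjusted p = 9.7e-05). Prf1, which encodes perforin, stood at 86.9 ± 41.5 CPM (mean ± SD, n = 5 libraries) against 2.27 ± 2.57 (4.61, SE 0.48, adjusted p = 0.00036). Gzmb, the granzyme that cleaves caspases, stood at 1023 ± 155 CPM against 198 ± 95.4, a smaller gap, with some of it in the CD4 T cells of every library (2.53, SE 0.26, adjusted p = 0.0003). Nkg7, a granule membrane protein, stood at 585 ± 222 CPM against 72.6 ± 49.1 (3.10, SE 0.24, adjusted p = 8.5e-05). Ctsw, a protease of cytotoxic cells, stood at 279 ± 60.9 against 47.9 ± 23.9 CPM (2.59, adjusted p = 9.4e-05). The serpins Serpinb9 and Serpinb6b, of which Serpinb9 shields the killer cell from its own granzyme B, had log2 folds of 1.90 (adjusted p = 0.0002) and 1.22 (adjusted p = 0.0012), the second not without the library block (0.161). The ninth member, Cst7, was called at 1.21 (adjusted p = 0.017) and lost the call without chronic (0.103), irradiated (0.055) or normal (0.058).

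Among secreted factors, Ccl5, a chemokine that draws T cells and monocytes, was at 806, 910, 2383, 1017 and 2148 CPM in normal, irradiated, continuous, acute and chronic. CD4 T cells of the same libraries held 97.9, 139, 23.0, 34.2 and 61.7 CPM. The lowest CD8 value was above the highest CD4 value (log2 fold 4.58, SE 0.53, edgeR adjusted p = 0.00075). Ccl4 passed too, at 0.81 (adjusted p = 0.003), but not without doublets (0.555). Its UMIs were in 92.8% of neutrophils and 54.4% of fibroblasts against 49.3% of members. The part of RNA from such cells in its level here was not tested. Ifng (0.87, adjusted p = 0.34) and Tnf (0.21, adjusted p = 0.73) did not pass. Areg, a growth factor of the EGF family, was lower at 58.5 ± 71.3 against 459 ± 290 CPM (−3.40, adjusted p = 0.0021).

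The type 17 list, the genes of interleukin-17 producing cells, had 6 of 8 tested members lower and 0 higher, with a median of −1.90. Rora, a nuclear receptor of that programme, was at 345 ± 148 against 1373 ± 239 CPM (−1.97, edgeR adjusted p = 0.0002), and the transcription factor Maf at 134 ± 64.8 against 675 ± 135 CPM (−2.25, adjusted p = 0.00079). Il17f was lower at −3.19 (adjusted p = 0.0027; 0.0835 without the library block). Il17a was at 28.1, 0, 826, 79.3 and 397 CPM in normal, irradiated, continuous, acute and chronic, against 639, 633, 2003, 1635 and 1366 CPM in CD4 T cells. Its fold of −2.85 (adjusted p = 0.013) missed the threshold without acute (0.0508), without normal (0.0507) or without the library block (0.301). Tmem176a (−1.84, adjusted p = 0.0069) missed it without chronic (0.071), and Il1r1 (−1.23, adjusted p = 0.023) when acute (0.059), chronic (0.115), irradiated (0.068) or normal (0.0509) was left out. The list count fell to 4 without acute, chronic or normal.

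Costimulatory receptors and ligands were lower in 5 of 11 tested and higher in 0. Tnfrsf4 (OX40), which sustains helper T cells, was at 16.0, 54.9, 20.1, 39.6 and 20.6 CPM against 437, 412, 441, 156 and 316 CPM, without overlap (−3.77, SE 0.29, edgeR adjusted p = 8.5e-05). Tnfsf8, the CD30 ligand, stood at 31.3 ± 17.6 against 383 ± 83.0 CPM (−3.59, adjusted p = 8.5e-05), and Tnfsf11, the RANK ligand, at 26.9 ± 12.4 against 194 ± 91.0 CPM (−2.74, adjusted p = 0.00074). Icos was at 646 ± 200 against 1560 ± 98.7 CPM (−1.26, adjusted p = 0.00079). Among checkpoint receptors only Ctla4, a brake on costimulation, was called of 6 tested, at −1.45 (adjusted p = 0.0062), and Pdcd1 was at 0.75 (adjusted p = 0.056). Other genes far lower were Ermn (−4.44, adjusted p = 8.5e-05), the chemokine receptor Ccr4 (−3.22, adjusted p = 0.0019), the trefoil factor Tff1 (−2.89, adjusted p = 0.0019) and the decoy receptor Il1r2 (−2.51, adjusted p = 9.7e-05).

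NK receptors were higher in 3 of 7 tested and lower in 0. Klrd1 (CD94), which pairs with NKG2 chains, was at 238 ± 63.5 against 35.3 ± 39.7 CPM (log2 fold 3.07, SE 0.40, edgeR adjusted p = 0.0014), and Klrk1 (NKG2D) at 183 ± 23.3 against 59.0 ± 30.6 CPM (1.74, adjusted p = 0.0059). Klrc1 was called at 1.00 (adjusted p = 0.038), a call lost without chronic (0.192), irradiated (0.133) or normal (0.13). Ly6c2, a surface antigen of memory and effector CD8 cells, was higher at 3.87 (adjusted p = 0.0012), and so was Bend4 at 4.87 (adjusted p = 0.00023). Of 9 tested naive and central memory genes, 4 were higher and 0 lower: Cd27 (1.73, adjusted p = 0.017), Tcf7 (1.28, adjusted p = 0.044), Ccr7 (1.16, adjusted p = 0.032) and Foxp1 (0.92, adjusted p = 0.029). None of these 4 calls held without irradiated (0.0601 to 0.115), and Cd27, Ccr7 and Foxp1 were also not called without chronic (0.0750 to 0.0880), Ccr7 and Tcf7 without acute (0.0859 and 0.102), Tcf7 without continuous (0.103) and Foxp1 without normal (0.0684). Without the library block Cd27 (0.0534), Ccr7 (0.372) and Foxp1 (0.196) missed the threshold. Of 10 tissue residence genes, 4 were lower, among them Cxcr6, a chemokine receptor of skin T cells, at −0.72 (adjusted p = 0.032), and Bhlhe40 at −1.09 (adjusted p = 0.0019). The list had 2 lower without acute, chronic or continuous and 1 without irradiated, and Cxcr6 missed the threshold without any 1 of acute (0.073), chronic (0.099), continuous (0.0613) or irradiated (0.122). Itgae, at 0.34 (adjusted p = 0.67), and Cd69, at 0.06 (adjusted p = 0.95), were not called. Neither were the proliferation list (0 of 17), the immediate early list (0 of 17) or the cytokine receptor list (0 of 10) in either direction. The neutrophil markers summed to 1338 to 8214 CPM in the CD4 T cells of these 5 libraries against 3333 to 9715 CPM in the CD8 T cells, and B cell markers reached 10687 CPM in the CD4 T cells of normal. Their part in the result was not tested.

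Against γδ T cells, more genes separated the classes: of 4843 tested, 310 (6.4%) were higher and 480 (9.91%) lower in CD8 T cells, 16.3% in all. Without chronic 171 were higher and 236 lower, and without normal 202 were higher. Among T cell receptor signalling genes, 11 of 18 tested T cell receptor signalling genes were higher and 3 lower. Themis, which sets the strength of αβ receptor signals, was at 245, 243, 104, 277 and 162 CPM in normal, irradiated, continuous, acute and chronic against 2.02, 7.69, 1.62, 5.99 and 0 CPM (log2 fold 5.96, SE 0.36, edgeR adjusted p = 1.8e-06). Trac, at 287 ± 58.5 against 62.7 ± 27.3 CPM (2.19, adjusted p = 2e-05), is tied to the gates, since the Trdc gate selects for the other receptor. Lck, the kinase that the CD8 tail carries to the receptor, was higher at 3.62 (adjusted p = 1e-05). Cd247, the ζ chain, was lower at −1.68 (adjusted p = 5.7e-05), and so were Zap70 at −1.22 (adjusted p = 0.001) and Lat at −0.72 (adjusted p = 0.012), the last not without chronic (0.058). The γδ receptor gene Tcrg-C1 was at 0 to 20.6 CPM against 385 to 700 CPM, and Trdv4 had no UMI in the members.

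Killing genes again set the members apart: 9 of 13 tested were higher, and 1, the granule proteoglycan Srgn, was lower at −0.71 (edgeR adjusted p = 0.002). Gzma was at 792 to 1267 CPM against 12.8 to 77.8 CPM (5.05, SE 0.31, adjusted p = 1.9e-06), Nkg7 at 330 to 850 against 14.5 to 35.6 CPM (4.72, SE 0.25, adjusted p = 6.3e-07), and Gzmk was higher at 6.68 (adjusted p = 2e-05). Fasl, the ligand that triggers death through Fas, was at 70.9 ± 25.8 against 2.46 ± 3.18 CPM (5.00, adjusted p = 0.00013). Gzmb was much closer between the classes, at 1023 ± 155 against 606 ± 211 CPM (0.76, adjusted p = 0.024), and its call was lost without chronic (0.078), irradiated (0.084) or normal (0.066). Ifng, the main macrophage-activating cytokine, was at 64.2, 259, 333, 79.3 and 227 CPM against 2.02, 7.69, 12.9, 21.0 and 3.64 CPM, without overlap (4.52, SE 0.40, adjusted p = 2e-05). Ccl5 was higher at 4.31 (adjusted p = 5.1e-05) and Ltb lower at −1.57 (adjusted p = 4.2e-05).

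The type 17 list was lower in 10 of 11 tested and higher in 0, and at least 10 were lower in each analysis without 1 library. Il17a averaged 266 ± 351 against 2967 ± 1121 CPM (−4.16, SE 0.63, edgeR adjusted p = 0.00074), and Il23r, a chain of the interleukin-23 receptor, 1.32 ± 1.87 against 54.6 ± 15.5 CPM (−4.85, adjusted p = 7.3e-05). Cd163l1, a scavenger receptor of γδ T cells, was at 0 to 15.5 against 638 to 1079 CPM (−6.84, adjusted p = 2e-07), Blk at −4.38 (adjusted p = 1.3e-05) and Areg at −5.42 (adjusted p = 1.2e-05). Naive and central memory genes were higher in 7 of 11 and lower in 1. Cd27 was at 108 ± 35.1 against 6.56 ± 2.67 CPM (3.93, adjusted p = 1e-05), Tcf7 at 234 ± 94.8 against 24.4 ± 12.9 CPM (3.12, adjusted p = 1.3e-05) and Ccr7 at 210 ± 117 against 25.6 ± 12.2 CPM (2.94, adjusted p = 1e-05). Without chronic the list had 4 higher. Residence genes pointed mostly the other way, with 5 of 12 lower: Cxcr6 was at −1.72 (adjusted p = 1.5e-05) and Rgs1, a brake on chemokine receptors, at −1.54 (adjusted p = 2.1e-05). Itga1, the collagen-binding integrin chain CD49a, was the 1 residence gene higher, at 76.6 ± 28.0 against 10.8 ± 7.67 CPM (3.13, adjusted p = 0.0008).

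Other receptors also split. Cd28, the main costimulatory receptor of αβ T cells, was at 369 ± 170 against 23.6 ± 11.5 CPM (3.92, SE 0.19, edgeR adjusted p = 3.6e-07), Icos was lower at −1.45 (adjusted p = 4.2e-05), and Pdcd1, the PD-1 receptor, was the 1 checkpoint gene of 6 called, lower at −1.41 (adjusted p = 0.0003). Klrd1 was higher at 3.97 (adjusted p = 5e-06), and the interleukin-2 receptor chains Il2ra and Il2rb were lower at −1.86 (adjusted p = 1e-05) and −0.83 (adjusted p = 0.00042). Of 15 effector and memory transcription factors 9 were lower, among them Zeb2 (−1.75, adjusted p = 2e-05) and Id2 (−0.90, adjusted p = 0.00068), and Stat4, which relays interleukin-12, was higher at 1.28 (adjusted p = 0.005). The list had 4 lower without chronic, 5 without normal and 6 without irradiated. The interferon-stimulated list was higher in 9 of 19 and lower in 0, led by Ifi27l2a at 2.37 (adjusted p = 0.00058) and Gbp5 at 1.93 (adjusted p = 0.0033), with 4 higher without chronic. The proliferation list was higher in 9 of 21, with Hmgb2 at 0.78 (adjusted p = 0.0011) and Mki67 at 0.81 (adjusted p = 0.013), but only 2 were called without chronic or without irradiated and 5 without normal. In these 5 libraries γδ T cells held 1175 to 11010 CPM of neutrophil markers, and the part of such transcripts in the result was not tested.

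Against NK cells, CD8 T cells held less Gzma and Prf1 and more of the T cell receptor genes. Of 1908 genes tested, 46 (2.41%) were higher and 64 (3.35%) lower in CD8 T cells, 5.77% in all. Leaving out chronic gave 19 and 31, irradiated 20 and 32, and normal 24 and 36. In the cytotoxic list 5 of 11 tested were lower and 0 higher, falling to 2 without acute and 3 without normal. Gzma was at 1139, 792, 947, 898 and 1267 CPM in normal, irradiated, continuous, acute and chronic, against 2695, 2433, 3478, 3062 and 3307 CPM in NK cells, lower in every library (−1.58, SE 0.11, edgeR adjusted p = 0.00016). Prf1 was at 86.9 ± 41.5 against 321 ± 109 CPM (−2.0, adjusted p = 0.0073) and Ifng at 192 ± 117 against 659 ± 507 CPM (−1.69, adjusted p = 0.0064, and 0.110 without the library block). Gzmc was lower at −3.36 (adjusted p = 0.038), and not without irradiated (0.092). Differences in Gzmb (0.52, adjusted p = 0.22), Nkg7 (−0.46, adjusted p = 0.18), Ccl5 (−0.67, adjusted p = 0.17) and Klrd1 (−0.54, adjusted p = 0.23) did not pass.

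Genes of the T cell receptor and several surface receptors were higher than in NK cells. T cell receptor signalling genes were higher in 7 of 14 and lower in 0, with Themis at 6.05 (edgeR adjusted p = 0.00048) and Trbc2 at 3.79 (adjusted p = 0.00017). The NK gate excludes CD3 UMIs, which bears on these genes. Cxcr6 was at 553, 337, 321, 238 and 500 CPM against 31.7, 0, 18.4, 17 and 0 CPM (4.66, SE 0.41, adjusted p = 0.00048). Icos stood at 646 ± 200 against 88.0 ± 22.2 CPM (2.83, adjusted p = 0.00027), the survival receptor Il7r at 264 ± 57.0 against 38.9 ± 29.1 CPM (2.90, adjusted p = 0.0028), and Il2ra was higher at 2.41 (adjusted p = 0.0019). All 3 checkpoint genes tested were higher, Pdcd1 at 2.94 (adjusted p = 0.034), but no call was left without chronic or without normal, and Pdcd1 also missed the threshold without irradiated (0.092).

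Lower than in NK cells were the transcription factors Eomes, at 67.7 ± 35.8 against 375 ± 48.9 CPM (−2.57, SE 0.32, edgeR adjusted p = 0.0021), and Irf8, at 133 ± 87.5 against 1828 ± 401 CPM (−4.01, adjusted p = 0.00078). The inhibitory receptor Klra7 was at −5.39 (adjusted p = 0.00079), and Klra4 had no UMI in the members. The adaptor Tyrobp was at −2.49 (adjusted p = 0.0078), the integrin chain Itga4 at −2.64 (adjusted p = 0.0012) and Il2rb at −1.34 (adjusted p = 0.0013). In these 5 libraries NK cells held 578 to 7617 CPM of neutrophil markers and, in chronic, 22714 CPM of erythroid markers, whose part in the result was not tested.

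**Figure D2:**
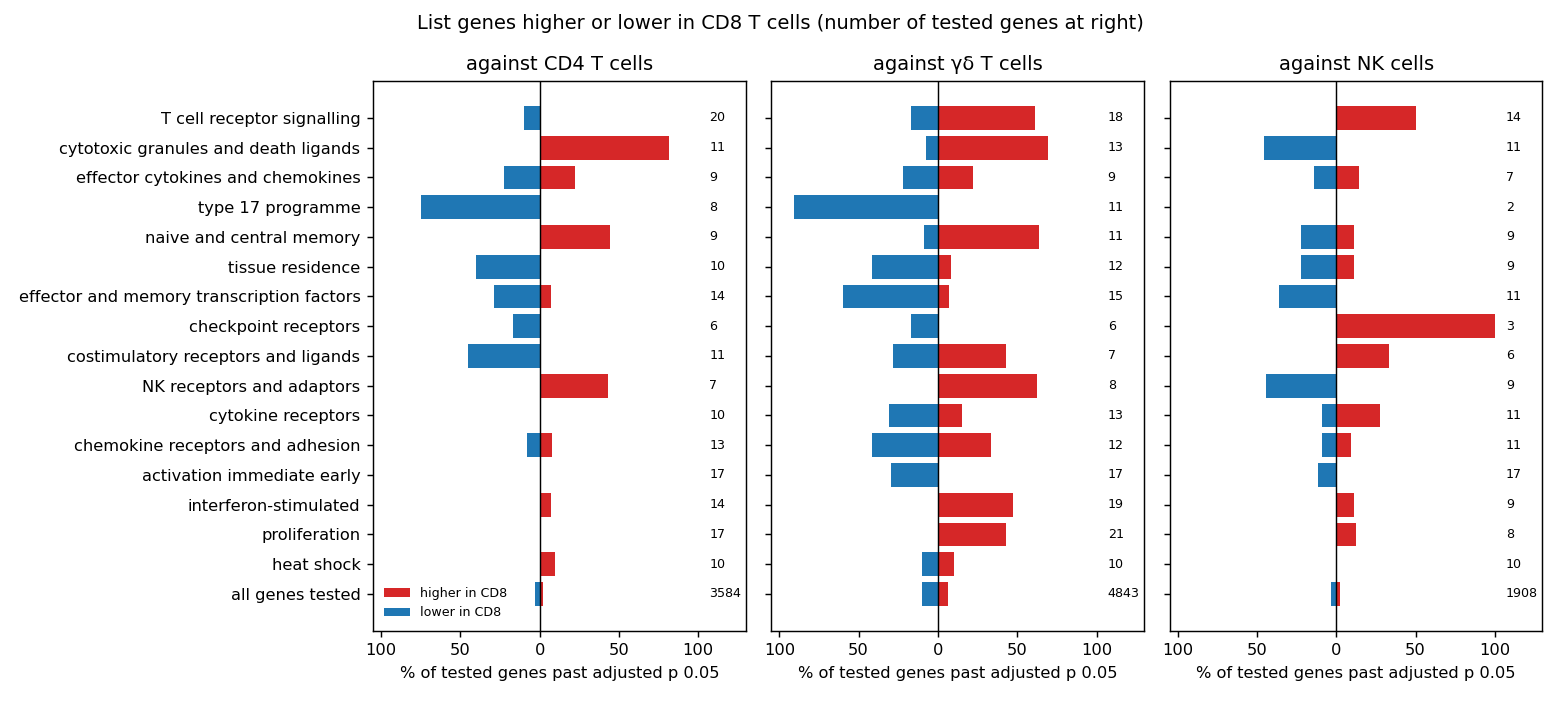
Percent of the tested members of each gene list called higher (red, to the right) or lower (blue, to the left) in CD8 T cells against each other class by edgeR at adjusted p under 0.05, with the number tested at the right of each row. The cytotoxic list lies to the right against CD4 (9 of 11) and γδ T cells (9 of 13) and to the left against NK cells (5 of 11), and the bottom row gives all genes tested.

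Per cell, most of these genes were seen in only some members. Over all libraries 60.9% of members held a Ccl5 UMI, 68.0% Nkg7, 56.9% Gzmb, 36.8% Gzma, 16.1% Prf1 and 15.0% Gzmk. In fibroblasts, which should lack them and held a median of 4461 UMIs against 2482 in members, the shares were 7.1%, 0.3%, 1.2%, 0.3%, 0% and 0%. Macrophages had Ccl5 UMIs in 34.2% of cells. Cytotoxic genes overlapped in single cells: a Gzmb UMI was found in 104 of 130 members with Gzma (80.0%, 72.1 to 86.5) and in 97 of 223 without it (43.5%), at median depths of 2483 and 2481 UMIs. Gzma was found in 38 of 53 members with Gzmk (71.7%) and in 92 of 300 without (30.7%). Cells of 1 library share their source, so these shares describe the cells and are not a test.

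The granzymes showed no common order over the libraries. Gzma UMIs were found in 54.6%, 34.9%, 17.6%, 39.3% and 34.9% of members in normal, irradiated, continuous, acute and chronic. Thinned to 1000 UMIs the shares were 43.3%, 31.7%, 13.9%, 32.0% and 31.4%, so normal stayed highest and continuous lowest. The CPM of Gzma did not follow, at 1139 in normal and 947 in continuous, where 1 cell alone held 99 of the 236 UMIs. Gzmb was seen in 57.7%, 53.5%, 44.6%, 60.7% and 66.1% of members, and Gzmk in 14.4%, 14.0%, 13.5%, 10.7% and 18.3%. No Gzma, Gzmb or Ccl5 UMI was found in the 2 members of pretreatment, which at 2 cells says nothing about their absence.

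Ccl5 and Itgae were both higher in continuous and chronic than in normal, irradiated and acute. Ccl5 was at 2383 CPM in continuous and 2148 CPM in chronic, against 806 in normal, 910 in irradiated and 1017 in acute. The ratio was 2.62 (exact 95% interval 2.14 to 3.22) for continuous and 2.36 (1.94 to 2.89) for chronic against irradiated, and 2.96 (2.51 to 3.49) and 2.67 (2.28 to 3.13) against normal. Without doublets the log2 ratios against irradiated were larger, at 2.36 for continuous and 2.28 for chronic in place of 1.39 and 1.24. The same step moved acute over irradiated from 0.16 to 1.23, and irradiated over normal from 0.17 to −0.69. With cells thinned to 1000 UMIs, the log2 ratios over irradiated were 1.71, 0.87 and 1.76 in continuous, acute and chronic. Thinned shares of cells with a Ccl5 UMI were 32.2%, 34.1%, 55.6%, 44.0% and 69.5% in normal, irradiated, continuous, acute and chronic. Itgae UMIs were found in 8 of the 97 members of normal, 2 of the 43 of irradiated, both of pretreatment, 29 of the 74 of continuous, 2 of the 28 of acute and 21 of the 109 of chronic. Its level was 60.1, 31.4, 380, 257, 66.1 and 129 CPM in that order, a ratio of 8.18 (3.05 to 31.0) for continuous against irradiated and 4.27 (2.40 to 8.06) against normal. Thinned, the shares with Itgae were 5.6%, 2.4%, 25.0%, 4.0% and 12.4% in normal, irradiated, continuous, acute and chronic. As a background, 0.6% of fibroblasts held an Itgae UMI. Xcl1, a chemokine for cross-presenting dendritic cells, was at 8.02, 86.3, 297, 145 and 87.6 CPM in normal, irradiated, continuous, acute and chronic. Continuous and pretreatment were the libraries without hashtag antibodies, so their label and their preparation cannot be told apart.

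Ccr7 and Tcf7 had their highest levels over all UMIs in irradiated. Ccr7 was at 168, 400, 108, 238 and 134 CPM in normal, irradiated, continuous, acute and chronic. Tcf7, a factor of naive and memory precursor cells, was at 184, 400, 185, 225 and 175 CPM in the same order. Among members with at least 2 CD8 UMIs, the log2 ratio of Tcf7 in continuous over irradiated was −0.45 in place of −1.12. Against irradiated, with its 43 members, the Ccr7 ratio was 0.271 (0.163 to 0.440) in continuous and 0.335 (0.223 to 0.503) in chronic, and irradiated against normal was 2.37 (1.55 to 3.66). This gap changed under thinning. With cells thinned to 1000 UMIs the log2 ratio of Ccr7 in irradiated over normal was 0.33 in place of 1.25. That of continuous over irradiated was −0.81 in place of −1.88, and that of acute over irradiated 0.13 in place of −0.75. Of the 43 members of irradiated 11 were marked as doublets, where 22.0% of all kept cells of that library were marked. Without doublets the log2 ratio of Ccr7 over normal was 1.48. H2-Aa, an MHC class II gene of antigen-presenting cells, was found in 5 of 13 members of irradiated with Ccr7 (38.5%, 13.9 to 68.4) and 3 of 30 without it (10.0%, 2.11 to 26.5), and the part of such cells in the Ccr7 level was not tested. Lef1 did not share this order, at 88.2, 70.6, 8.02, 52.8 and 33.5 CPM in normal, irradiated, continuous, acute and chronic. In single members, Tcf7 was found in 40 of 69 cells with Ccr7 and 73 of 284 without. Macrophages held Ccr7 UMIs in 10.5% of cells against 19.5% of members.

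Pooled over all libraries, Itgae cells differed in some of their cytotoxic genes. Of 64 members with an Itgae UMI, 11 held Gzma (17.2%, 8.90 to 28.7), against 119 of 289 without Itgae (41.2%, 35.4 to 47.1). The median depth was 2500.5 and 2455 UMIs. Within libraries, Gzma was found in 1 of 29 Itgae cells and 12 of 45 others in continuous, and in 4 of 21 and 34 of 88 in chronic, but in 5 of 8 and 48 of 89 in normal, the other way. Ccl5 was found in 24 of 64 (37.5%) and 191 of 289 (66.1%), Gzmb in 26 (40.6%) and 175 (60.6%), and Xcl1 in 15 (23.4%) and 21 (7.27%). Nkg7 was found in 45 (70.3%) and 195 (67.5%), and Cxcr6 in 38 (59.4%) and 130 (45.0%). The Ccl5 gap was seen in both libraries with many Itgae cells, at 12 of 29 and 34 of 45 in continuous and 11 of 21 and 75 of 88 in chronic. The other shares pool the libraries, with 29 of the 64 Itgae cells in continuous. Of the 5 larger sets, continuous also had the lowest share with Gzmb and the highest Xcl1 level. The part of the library in the pooled gaps was not tested.

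Il17a in CD8 T cells came from few cells. It had 7 UMIs in 4 cells of normal, 0 in irradiated and pretreatment, 206 in 6 cells of continuous, 6 in 2 cells of acute and 154 in 8 cells of chronic. Single cells held 176 of the 206 in continuous and 117 of the 154 in chronic. Among the 20 members with Il17a, 2 held Ccl5 (10.0%, 1.23 to 31.7), against 213 of the other 333 (64.0%), and 15 held Cxcr6 (75.0%) against 153 (45.9%). Il17f was found in 7 of the 20 and in 2 of 333, Ctla4 in 14 (70.0%) and 126 (37.8%), and Itgae in 8 (40.0%) and 56 (16.8%). All these shares pool the libraries, with 6 of the Il17a cells in continuous and 8 in chronic. The part of the library in them was not tested. Trac was found in 11 of the 20 (55.0%, 31.5 to 76.9) and in 180 of the other 333 (54.1%, 48.5 to 59.5). Cd8b1 was found in 15 (75.0%, 50.9 to 91.3) and 255 (76.6%, 71.7 to 81.0). The intervals overlapped and were wide for the 20 cells, and a difference was not tested. Cd8b1 belongs to the rule that chose the cells, so its share only describes the cells. Il17a was also in 2.0% of fibroblasts and 66.7% of γδ T cells, and the part of doublets or free RNA was not tested. Without cells marked as doublets, the log2 ratio of Il17a in chronic over continuous turned from −1.06 to 1.70, and with at least 2 CD8 UMIs to 3.52.

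**Figure D3:**
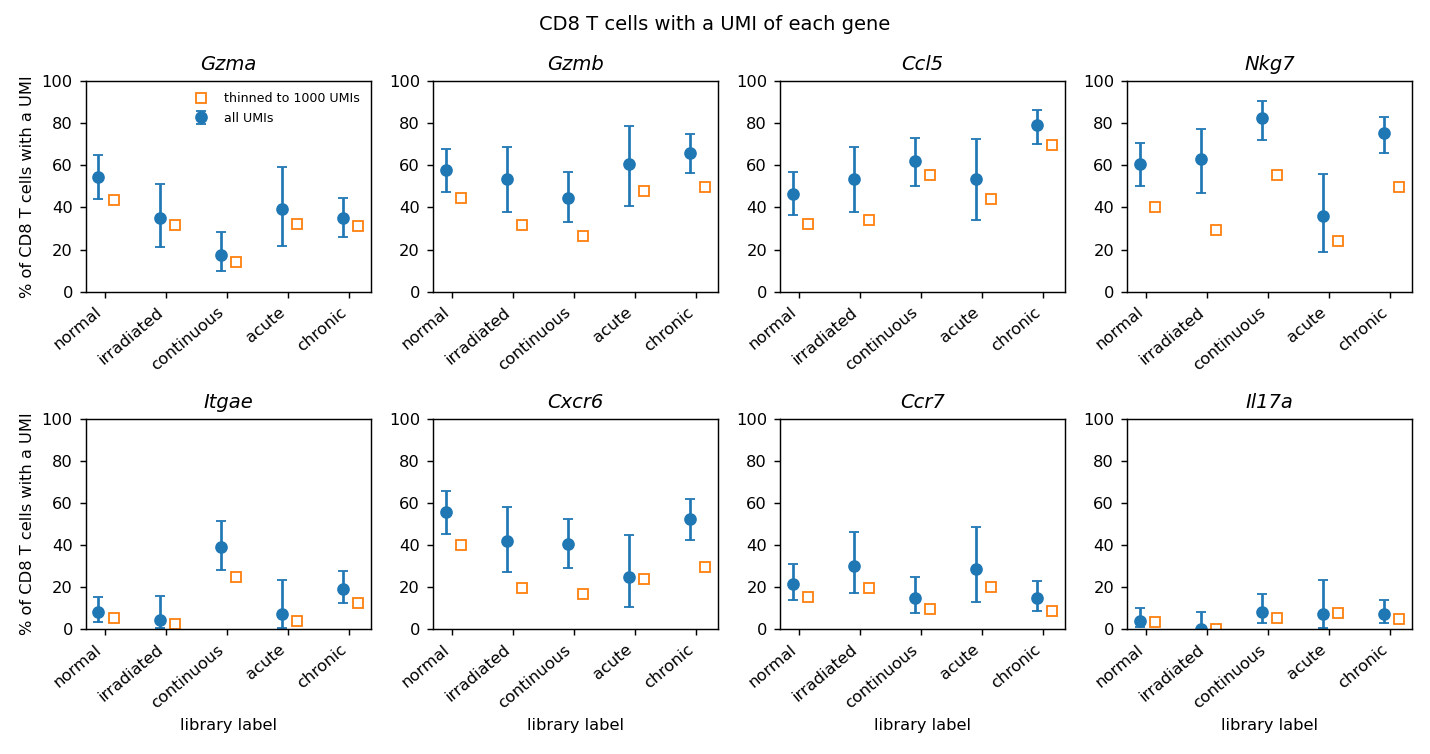
Percent of CD8 T cells with at least 1 UMI of 8 genes in the 5 libraries with over 2 members. Blue circles use all UMIs, with exact 95% binomial intervals, and orange squares cells thinned to 1000 UMIs. Itgae is highest in continuous (39.2%), Ccl5 in chronic (78.9%) and Gzma in normal (54.6%), while Il17a stays low in each.

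**Figure D4:**
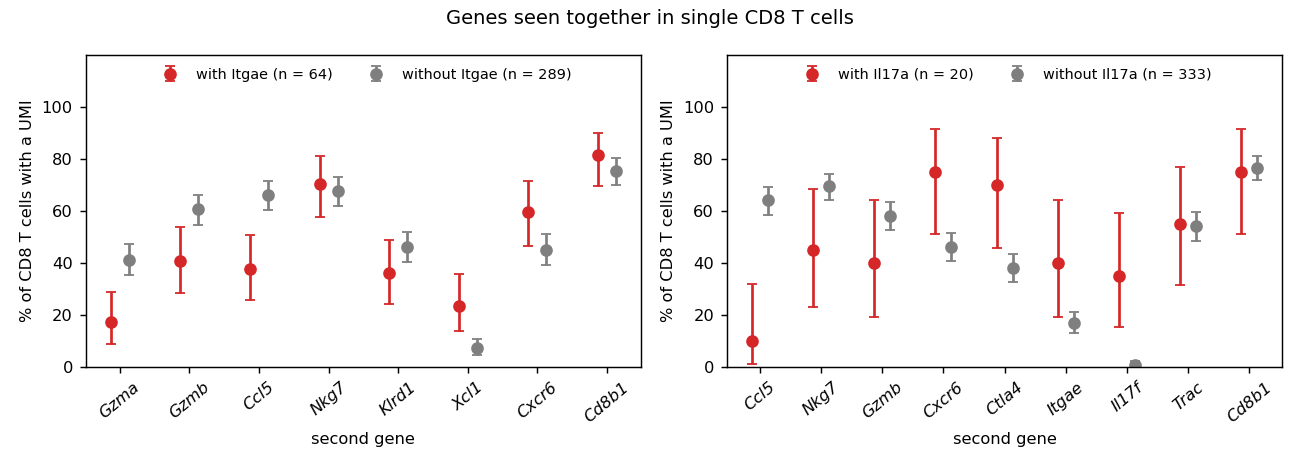
Percent of CD8 T cells holding a second gene, among cells with (red) and without (grey) Itgae (left) or Il17a (right), with exact 95% binomial intervals over all libraries. Gzma is in 17.2% of Itgae cells and 41.2% of the others, and Ccl5 is in 10.0% of Il17a cells and 64.0% of the others. The libraries are pooled, and their part in the gaps was not tested.

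Gene by gene, the members' summed UMIs were then compared between libraries, counting a gene as called when its CPM differed by at least 2-fold with an exact interval of the ratio that left out 1. There is no replicate, so this compares libraries and not conditions. Called in either direction were 199 of 3194 genes (6.23%) in irradiated against normal, 516 of 2940 (17.6%) in continuous against irradiated, 173 of 1816 (9.53%) in acute against irradiated and 320 of 3867 (8.28%) in chronic against irradiated. Pretreatment against irradiated gave 235 of 1205 (19.5%), from 2 members. In that pair 21.8% of genes were at least 1.5-fold higher and 49.2% at least 1.5-fold lower, and no list was described from so few cells. Since irradiated held 43 members, no gene was named by the size of its ratio against it. Lists were described by members at least 1.5-fold apart, beside the same share of all genes.

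Between irradiated and normal, 14% of all genes were 1.5-fold higher in irradiated and 17% lower. The heat shock list, chaperones that rise with protein damage, had 5 of 10 higher and 0 lower with a median log2 ratio of 0.61, against −0.03 over all genes. Hspa1a stood at 445, 910, 75.9, 1616, 846 and 1303 CPM in normal, irradiated, pretreatment, continuous, acute and chronic. Interferon-stimulated genes had 6 of 15 higher and 0 lower, with a median of 0.52. Cytotoxic genes had 3 of 12 higher and 1 lower, with a median of −0.19. Pdcd1 was 2.20 (1.22 to 3.98) times and Ifng 4.03 (2.16 to 7.85) times the level of normal, and S1pr1, which lets T cells leave tissue, was at 23.5 against 120 CPM. The S1pr1 value of irradiated rests on very few UMIs, since its 43 members held 127529 UMIs of all genes.

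In continuous against irradiated, 17.4% of all genes were 1.5-fold higher and 30.5% lower. Naive and central memory genes had 0 of 9 higher and 5 lower (median −0.60 against −0.17 over all genes), residence genes 5 of 11 higher and 1 lower (0.30), and cytotoxic genes 1 of 12 higher and 2 lower (0.09). In chronic against irradiated the background was 18.1% higher and 19.6% lower with a median of −0.02. Naive and central memory genes had 1 of 12 higher and 8 lower (−0.79), proliferation genes 2 of 17 higher and 9 lower (−0.64), interferon-stimulated genes 1 of 17 higher and 5 lower (−0.40), and cytotoxic genes 4 of 13 higher and 2 lower (0.18). In acute against irradiated, with 28 and 43 members and a background of 14.9% higher and 19.7% lower (median −0.09), proliferation genes had 0 of 12 higher and 7 lower (−0.65) and T cell receptor signalling genes 0 of 16 higher and 8 lower (−0.60). All 4 comparisons share the irradiated library, so their list values are not independent of one another.

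Ccl4 and Tnf had wide ratios, with Ccl4 at 1857, 2470, 273, 1493 and 726 CPM in normal, irradiated, continuous, acute and chronic, and Tnf at 221, 267, 44.1, 753 and 118 CPM. Both genes were seen in as large a share of neutrophils (92.8% and 70.4%) or macrophages (78.2% and 75.8%) as of members (49.3% and 21.5%) or larger, so no difference in CD8 T cells is read from them. The summed neutrophil markers of the members, 9715 CPM in irradiated, 4974 in continuous and 3333 in chronic, moved in the same direction as Ccl4 between irradiated and each of these 2, and their part was not tested.

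Of all pairs of libraries, those with at least 50 members each were normal, continuous and chronic, a choice made after the member counts were seen. Chronic against normal called 376 of 4477 genes (8.4%), continuous against normal 610 of 3791 (16.1%) and chronic against continuous 479 of 4359 (11%). In chronic against normal the heat shock list had 9 of 10 members 1.5-fold higher and 0 lower (median 0.89), where 12.6% of all genes were higher and 18.7% lower. Continuous against normal had 4 heat shock genes higher and 0 lower (0.48), interferon-stimulated genes 9 of 16 higher and 3 lower (0.61), naive and central memory genes 2 of 12 higher and 7 lower (−0.75) and iron handling genes 0 of 7 higher and 5 lower (−1.20), on a background of 13.6% higher and 29% lower (median −0.24). The members' summed neutrophil and macrophage markers were also lower in continuous than in normal. Their part in the iron handling values was not tested. Tfrc, the transferrin receptor for iron uptake, was at 156, 165, 68.2, 238 and 129 CPM in normal, irradiated, continuous, acute and chronic. With cells thinned to 1000 UMIs, the log2 ratio of Tfrc in chronic over normal was 0.54 in place of −0.28.

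The genes with the widest ratios often rested on a few cells. In chronic against normal, Ahcyl2 was 5.46 (2.34 to 15.6) times higher from 34 cells and 5.02 times without its top cell, and Traf4, an adaptor of TNF receptors, 3.58 (1.58 to 9.48) times from 28 cells. Il17a, at 14.1 (6.70 to 35.7) times, fell to 3.45 without 1 cell, Il22, at 12.8 (3.33 to 110) times from 7 cells, to 5.18, and Ccl8, a monocyte chemokine at 5.17 (3.20 to 8.83) times, to 1.14 (0.628 to 2.12). App was 4.41 (2.23 to 9.35) times lower, Nt5e, which encodes the adenosine-producing enzyme CD73, 4.32 (1.95 to 10.5) times, the GTPase Rras2 3.42 (1.81 to 6.79) times and Lyst, a lysosome regulator, 3.35 (1.68 to 7.05) times. In normal, neutrophils held more App (537 CPM against 136 in members) and Lyst (226 against 112 CPM), and the members' summed neutrophil markers were at 9247 CPM in normal and 3333 CPM in chronic. Their part in these ratios was not tested. Serpine2, 7.78 (2.93 to 26.0) times lower in chronic, reversed without 1 cell of normal, with a log2 ratio of 0.65.

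In chronic against continuous, Myb, a transcription factor of proliferating and stem-like lymphocytes, was at 330 against 52.1 CPM, 6.32 (3.57 to 12.2) times higher from 49 cells. Mxi1, a MYC antagonist, was 7.84 (3.18 to 25.0) times higher from 38 cells, the octamer factor Pou2f2 5.50 (2.51 to 14.3) times from 29 cells, the elongation factor Ell2 4.85 (2.41 to 11.1) times from 36 cells and the helicase Dhx40 4.78 (2.82 to 8.63) times from 57 cells. Pou2f2 was also 7.0 (3.15 to 18.3) times lower in continuous than in normal, with Rras2 8.25 (2.93 to 32.0) times, Sidt1 6.75 (2.35 to 26.5) times, Lrrc8d 25.0 (4.09 to 1026) times and the chemokine Cxcl1 11 (6.48 to 20.1) times lower. In normal, fibroblasts held more Cxcl1 (2504 CPM against 662 in members) and macrophages more Lrrc8d (186 against 100 CPM). In chronic, macrophages held more Ell2 (353 against 175 CPM) and Mxi1 (173 against 157 CPM). Myb, Dhx40, Pou2f2, Rras2 and Sidt1 were higher in members than in neutrophils, macrophages, fibroblasts or keratinocytes. The part of these other cells in the ratios was not tested. Xcl1, higher in continuous than in normal at 37.0 (9.89 to 311) times from 15 cells, kept a ratio of 19.8 without its top cell. In continuous, 424 of 425 Il22 UMIs lay in 1 cell, and without it the log2 ratio over normal was −0.97. The 304 Cfd UMIs of continuous lay in 1 cell. Serpina3n, Abi3bp, Rarres2, Cxcl12 and Saa1, the other genes of widest ratio toward continuous, are secreted products of stromal cells. Serpina3n, from 8 cells, was at 682 CPM in continuous against 1482 CPM in its fibroblasts, and the members there summed to 5395 CPM of fibroblast markers against 2855 in normal and 265 in chronic. Their part in these ratios was not tested.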

How the data were processed

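Single-cell RNA sequencing of 6 libraries, 1 per label, used 10x Chromium 3' v3 chemistry and a NextSeq 500 sequencer (per the labels' protocols). What the authors deposited is raw counts of UMIs for each gene and cell barcode, and per the file headers the software was Cell Ranger 6.0.0. The submitters' processing notes name Cell Ranger, Seurat 5.0.1 and the pig build Sscrofa11.1, but all gene identifiers were mouse, and the build behind them is not given in the sources used here.

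Cells needed at least 500 UMIs, 300 genes and at most 20% mitochondrial UMIs, which kept 83559 of 88337 barcodes (94.6%). Hashtag UMIs stayed out of gene totals. Classes were gated on UMIs, as the report gives. Sums of UMIs for each class in each library were tested with edgeR 4.0.16 in R 4.3.3 (quasi-likelihood, TMM, filterByExpr, library block, at least 10 cells per class and library). P-values were adjusted by Benjamini-Hochberg over all genes tested. On simulated data, 81%, 80% and 73% of 4-fold and 28%, 16% and 27% of 2-fold changes were recovered for the CD4, γδ and NK comparisons, on 3347, 4535 and 1759 genes. The simulation changed only genes above a minimum expected count. It used a single fixed dispersion and no difference between libraries except depth, so these rates hold for those settings only. Between libraries, CPM ratios carry exact 95% Poisson intervals, for genes with at least 20 UMIs over both. Shares carry Clopper-Pearson intervals, and a difference of shares combines both. Depth was 75689 to 388194 UMIs of members in the 5 tested libraries and 13167 in pretreatment.

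Genes named were the 10 highest and 10 lowest by fold per class comparison (mean of 50 CPM in the higher class, same direction in every library), up to 4 per direction and list, the 5 widest ratios per direction and pair of libraries with at least 50 members each (100 CPM and 20 UMIs in the higher library, at least 0.25 times the highest background class, without mitochondrial, ribosomal, haemoglobin and immunoglobulin genes), and a fixed list. The text prints a part of them. Members, the 21 gene lists (412 of 413 symbols matched) and the 13 marker lists were chosen with earlier results of these data known. Alternatives were DESeq2 1.42.0, RLE size factors, no count filter, no library block, each library left out, Scrublet doublets removed (scanpy 1.11.5), thinning to 1000 UMIs, at least 2 CD8 UMIs and a stricter cell filter (1000 UMIs, 500 genes, 10% mitochondrial UMIs). Thinning left out cells with under 1000 UMIs. Scrublet's threshold was replaced by the highest scores, at 0.8% per 1000 barcodes up to 10%, where it marked under 0.5%, and 1.47% to 22.0% of cells were marked. Other tools were Python 3.11.15, numpy 2.4.6, scipy 1.17.1, pandas 2.3.3 and matplotlib 3.10.9.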

Additional observations from a re-analysis of the deposited data

Results flagged for a closer look

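UMIs of anti-mouse hashtag antibodies, which no comparison above uses, lay on the CD8 T cells of the 4 libraries that held them, and no control library without antibody gives their background. The median member held 1360 UMIs of hashtag 7 in normal, 733 of hashtag 7 in irradiated, 515.5 of hashtag 7 in acute and 1301 of hashtag 8 in chronic. Asking for at least 10 UMIs and 3 times the next hashtag, 88 of 97 members in normal, 9 of 43 in irradiated, 0 of 28 in acute and 79 of 109 in chronic could be given to 1 hashtag. No source links a hashtag to an animal or a sample, so members were not split by it.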

How the results depend on the processing

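Libraries could not be paired with one another, because the labels give no replicate numbers and 1 library per label. The class comparisons were paired within each library by the library block. Dropping that block gave 38 higher and 61 lower genes against CD4 T cells, and 182 and 318 against γδ T cells. DESeq2 gave 49 higher genes against CD4 T cells and 315 lower against γδ T cells. Without the count filter there were 149 higher and 293 lower genes (CD4), 801 lower (γδ), and 184 and 142 (NK). At least 2 CD8 UMIs gave 45 higher genes (CD4). Leaving out 1 library gave 38 to 77 higher and 63 to 129 lower genes (CD4), 171 to 402 and 236 to 530 (γδ), and 19 to 43 and 31 to 66 (NK). For single genes called between classes, 2289 alternative values kept the call and 327 lost it, and for genes not called 469 stayed so and 19 passed. None of these values reversed. Shares of kept cells after thinning were 0.396%, 0.0660%, 0%, 0.345% and 0.592% in normal, irradiated, pretreatment, continuous and chronic, where 0 of 1396 cells in pretreatment allows up to 0.264%. With at least 2 CD8 UMIs they were 0.305%, 0.122%, 0.561%, 0.0539% and 0.861% in normal, irradiated, continuous, acute and chronic, and the stricter filter gave 0.791% in normal and 0.272% in irradiated. Among cells with 2 CD3 UMIs they were 11.1%, 4.37%, 2.25%, 8.17%, 2.96% and 6.40% in normal, irradiated, pretreatment, continuous, acute and chronic. The acute minus irradiated share turned to 0.0143 points after thinning. Thinning, which leaves fewer UMIs, called 73 genes in irradiated against normal, 147, 45 and 130 in continuous, acute and chronic against irradiated, 143 and 208 in chronic and continuous against normal, and 124 in chronic against continuous. At least 2 CD8 UMIs called 74 in acute against irradiated, and moved the proliferation median of continuous against irradiated to −0.84. Without its top cell the log2 ratio of Serpine2 (chronic against normal) was 0.65 and that of Il22 (continuous against normal) −0.97. In chronic against continuous, Ccl4 turned to −0.38 without doublets, and Il17a to 1.70 without doublets and 3.52 with at least 2 CD8 UMIs. Beyond thinning and the top cells, the cause was not tested. The median member held 2 CD8 UMIs, and irradiated, acute and pretreatment held few members, which limits what can be seen there.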

Other observations

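The CD8 co-receptor is an αα or an αβ dimer, and the αα form also occurs on innate-like lymphocytes and some dendritic cells. Members with a Cd8b1 UMI (270 cells, median depth 2555.5 UMIs) and those with Cd8a alone (83 cells, 2113 UMIs) were set side by side, as a description of cells from the same libraries. Klrd1 was found in 48.5% (42.4 to 54.7) of the first and 30.1% (20.5 to 41.2) of the second, Gzmk in 17.4% (13.1 to 22.5) and 7.2% (2.7 to 15.1), and Trac in 58.1% (52.0 to 64.1) and 41.0% (30.3 to 52.3). Xcl1 was found in 7.8% (4.9 to 11.6) and 18.1% (10.5 to 28.0). Ccl5 (60.0% and 63.9%), Gzmb (57.8% and 54.2%), Gzma (38.9% and 30.1%) and Itgae (19.3% and 14.5%) had intervals that overlapped, as did those of Gzmk, Trac and Xcl1, so of these genes only Klrd1 lay apart. Clec9a, a marker of dendritic cells that carry Cd8a, had no UMI in either set. The set with Cd8a alone was shallower, and the part of depth in these shares was not tested. Both CD8 genes belong to the rule, and 129 of the 353 members had a single CD8 UMI. A cell without a Cd8b1 UMI may still hold its RNA, so the split cannot tell αα from αβ cells.

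Transcripts of dividing cells were seen in a fraction of the members. Mki67 UMIs were found in 22.7%, 34.9%, 21.6%, 25.0% and 27.5% of members in normal, irradiated, continuous, acute and chronic. Top2a was found in 60 of 90 members with Mki67 and in 31 of 263 without it. The cells with Mki67 were deeper, with a median of 3842 UMIs against 2193, and the 5 libraries' shares had overlapping intervals.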
